A study of Bos taurus with 6 samples.

Results

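The genes described are 7 transcription factors that act in the female germ line: FIGLA, NOBOX, LHX8, TBPL2, BNC1, SOHLH1 and SOHLH2. Members were found by their symbol in the deposited expression table of 20707 Ensembl genes, where symbols are gene names of human orthologs. By that rule 5 of the 7 had a row, 1 row each, and the other 2, SOHLH1 and SOHLH2, had none. A row that the annotation names SOHLH1 and a row with the compound symbol CCDC169-SOHLH2 are given apart from the 5.

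The data are RNA levels of single cattle (Bos taurus) oocytes from ovaries collected at an abattoir. GV oocytes, which hold a germinal vesicle and are arrested in meiotic prophase, were taken when follicles were aspirated. MII oocytes stood at the metaphase of meiosis II after 24 hours of in vitro maturation. Each stage has 3 libraries, and no treatment or genotype is stated for either. One label calls all samples matured in vitro, so stage was read from the stage label and the column names.

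Values are RPKM, reads scaled to gene model length and to how many reads mapped in that library, so every change is relative to the library's total. The GV columns are GV14, GV14c and GV15, and the MII columns MII14c, MII15 and MII15c. No sample is titled GV14c or MII15c, so those 2 were used by the stage in their name alone. Separate animals are not stated, nor whether c marks another oocyte or a repeat, so p-values measure only the spread between these libraries. Depth recovered from the low values was 20.22 to 29.92 M reads in GV and 21.27 to 32.55 M in MII. The cDNA kit named in the labels primes on poly(A) tails, so the number of transcripts and how well their tails were captured cannot be told apart. The sample titles GV15c and MII14, in turn, match no column. Adapters were diluted 1:50 for MII14c and MII15 and less for GV14 (1:30) and GV15 (1:10), and among the columns with a matching title dilution cannot be told apart from stage. The sample titled MII14 had the same 1:30 as GV14, but which column holds it, if any, is not stated.

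FIGLA and the SOHLH proteins are basic helix-loop-helix factors, NOBOX and LHX8 are homeodomain factors, TBPL2 is a relative of the TATA-binding protein, and BNC1 is a zinc finger protein. In mice, SOHLH1, SOHLH2, LHX8, NOBOX and FIGLA are needed for follicles to form or to begin growth, and FIGLA is known for activating the zona pellucida genes. TBPL2 takes the place of the TATA-binding protein in growing oocytes. Transcription is largely silent in the fully grown oocyte and through maturation, when the cell relies on stored mRNA.

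FIGLA, TBPL2 and LHX8 mRNA fell between GV and MII, and NOBOX and BNC1 did not pass the test. Of the 5 rows, all of which averaged at least 1 RPKM and were tested, 3 were called lower and 0 higher. Over all 8671 genes tested, 26.9% were called lower, 13.4% higher and thus 40.3% in either direction (limma on log2(RPKM + 1), adjusted p under 0.05). With other scalings these shares were 23.7% lower and 19.4% higher (median-ratio) and 20.5% lower and 24.6% higher (quantile), and the members' counts stayed at 3 and 0. The stages did not overlap for FIGLA, TBPL2 and LHX8, each lower in MII, while 32.1% of all tested genes lay wholly lower in MII and 19.8% wholly higher. At an unadjusted p under 0.05 the members' counts were also 3 lower and 0 higher. The all-gene shares at that level were not counted and are at least 26.9% lower and 13.4% higher. The members' median log2 change was -1.21, against -0.16 over all genes tested. All log2 changes are MII minus GV on the log2(RPKM + 1) scale, which understates the change of low genes.

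**Figure D1:**
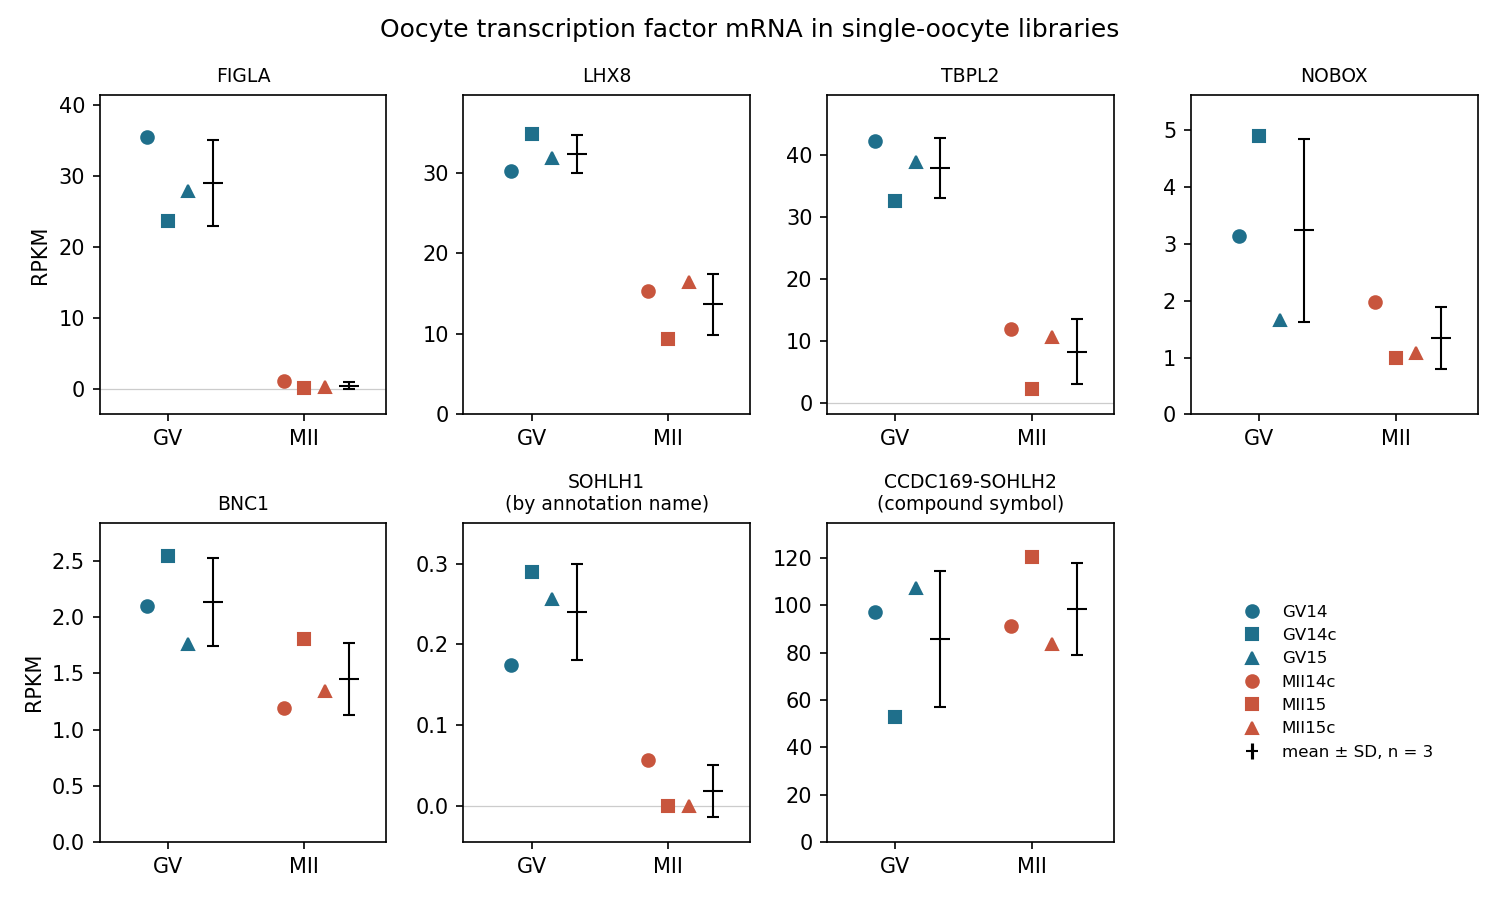
RPKM (linear vertical axes, a separate scale in each panel) of each gene in the 6 libraries, GV in blue and MII in red, with a symbol for each library. Black marks give the mean ± SD of 3 libraries. FIGLA, LHX8, TBPL2 and SOHLH1 do not overlap between stages, whereas NOBOX, BNC1 and the CCDC169-SOHLH2 row do.

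FIGLA was read at 35.536, 23.661 and 27.944 RPKM in GV14, GV14c and GV15, and at 1.055, 0.114 and 0.261 RPKM in MII14c, MII15 and MII15c. The lowest GV library was 22.4-fold above the highest MII library. Mean RPKM went from 29.05 ± 6.01 to 0.477 ± 0.506 (SD, n = 3 per stage), so 1.64% of the GV mean was left, or 0.646% without MII14c, the highest MII library. The log2 change was -4.38 ± 0.34 (SE; limma adjusted p = 3.88e-05), and FIGLA ranked 23 among 8671 genes ordered from the steepest fall. Among all 20707 rows FIGLA stood at the 87.9 to 91.1 percentile of GV libraries and at the 52.4 to 61.4 percentile of MII libraries. The MII values stand for 32.8 reads per kilobase of gene model in MII14c, 2.425 in MII15 and 8.496 in MII15c. Read counts of FIGLA were not recovered. FIGLA lies on chromosome 11, plus strand, with 3 coding exons from 13612910 to 13619093 in the deposited annotation, whose build is not given in the sources used here. Its transcript model begins 8381 bases before the coding span and ends 8739 bases after it. The part of those stretches in its RPKM was not tested.

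TBPL2 was read at 42.345, 32.676 and 38.852 RPKM in GV14, GV14c and GV15, and at 12.00, 2.203 and 10.663 RPKM in MII14c, MII15 and MII15c. The stages did not overlap, and MII15 was well below the other two MII libraries. Mean RPKM went from 37.96 ± 4.90 to 8.29 ± 5.31 (SD, n = 3 per stage), with a log2 change of -2.30 ± 0.49 (SE; limma adjusted p = 0.00571). Without MII15 the change was -1.65 ± 0.23 (limma adjusted p = 0.00142; 8.93e-05 to 0.029 over the alternatives). TBPL2 lies on chromosome 10, minus strand, with 7 coding exons from 68112228 to 68138989. A longer TBPL2 model in the annotation runs into ATG14, an autophagy gene on the same strand, over 11600 bases. ATG14 moved the other way, with a log2 change of 0.86 (limma adjusted p = 0.0327).

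LHX8 was read at 30.219, 34.835 and 31.749 RPKM in GV14, GV14c and GV15, and at 15.259, 9.381 and 16.418 RPKM in MII14c, MII15 and MII15c. Its GV libraries were the closest together of the 5 rows, with a coefficient of variation of 7.29%. Mean RPKM went from 32.27 ± 2.35 to 13.69 ± 3.77 (SD, n = 3 per stage), and 42.4% of the GV mean was left. The log2 change was -1.21 ± 0.27 (SE; limma adjusted p = 0.0069). LHX8 lies on chromosome 3, minus strand, with 10 coding exons from 69890915 to 69916293.

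NOBOX was read at 3.149, 4.896 and 1.671 RPKM in GV14, GV14c and GV15, and at 1.979, 0.988 and 1.084 RPKM in MII14c, MII15 and MII15c. The stages overlapped, because GV15 lay below MII14c. These values stand for 251, 351 and 90 reads in GV and 164, 56 and 94 in MII. Mean RPKM was 3.24 ± 1.61 in GV and 1.35 ± 0.547 in MII (SD, n = 3 per stage). Its ratio of means, 2.40, was close to the 2.36 of LHX8, but its GV coefficient of variation was 49.9%. The log2 change of -0.80 ± 0.38 did not pass (SE; limma adjusted p = 0.12), and its 95% interval, -1.65 to 0.05, includes falls as large as that of LHX8. With the letter c as a term NOBOX passed (log2 change -0.99; limma adjusted p = 0.0282; 0.0112 to 0.529 over the alternatives). NOBOX lies on chromosome 4, minus strand, with 7 coding exons from 108488348 to 108492938.

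BNC1 was read at 2.105, 2.542 and 1.761 RPKM in GV14, GV14c and GV15, and at 1.194, 1.807 and 1.341 RPKM in MII14c, MII15 and MII15c. The stages overlapped only through GV15 and MII15. Mean RPKM was 2.14 ± 0.391 in GV and 1.45 ± 0.320 in MII (SD, n = 3 per stage), from 769 reads in GV and 549 in MII. The log2 change of -0.36 ± 0.30 did not pass (SE; limma adjusted p = 0.367; 95% interval -1.03 to 0.31), and it was 0.17 after quantile normalization. BNC1 lies on chromosome 21, plus strand, with 6 coding exons from 25237608 to 25254749. The annotation lists 1674 reads in support of the BNC1 gene model, 0 of them spliced. Over 7015 genes with at least 3 coding exons and 500 such reads, the median share spliced was 3.55% (quartiles 1.582% and 5.997%), and 140 of them, 1.996%, had none. The share was 9.07% for FIGLA, 5.25% for TBPL2, 2.06% for NOBOX and 1.81% for LHX8. Which libraries those reads come from is not stated, and whether unspliced RNA or DNA enters the BNC1 values was not tested.

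SOHLH1 was barely read. The row that the annotation names SOHLH1 carries the symbol LOC100996634 in the expression table and stood at 0.174, 0.29 and 0.257 RPKM in GV14, GV14c and GV15, and at 0.056, 0 and 0 RPKM in MII14c, MII15 and MII15c. In reads these are 6, 9 and 6 in GV against 2, 0 and 0 in MII. A count of 0 allows up to 3 reads, or 0.122 RPKM in MII15 and 0.0799 RPKM in MII15c, both below the lowest GV value. Over the libraries of a stage, 21 reads in GV and 2 in MII give an MII to GV ratio of 0.0864 after scaling to depth (exact conditional 95% interval 0.0098 to 0.354, counting error only). The exact permutation test over libraries gave p = 0.1 (two-sided), the smallest that 3 against 3 allows, and the row lies below the level tested with limma. SOHLH1 lies on chromosome 11, minus strand, with 7 coding exons from 103346297 to 103350967.

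SOHLH2 could be followed only through a row it may share. The symbol CCDC169-SOHLH2, the name of a human ortholog, is that of a transcript reading through from the gene CCDC169. RefSeq's table for cattle (ARS-UCD2.0) lists CCDC169 and SOHLH2 as separate genes of chromosome 12. In the deposited annotation the row has 10 coding exons from 25298991 to 25324738. Its transcript model begins 67148 bases before the first of them. Whether that model takes in CCDC169 was not tested, so the row's reads cannot be credited to SOHLH2 alone. The row stood at 97.12, 52.945 and 107.221 RPKM in GV14, GV14c and GV15, and at 91.237, 120.652 and 83.683 RPKM in MII14c, MII15 and MII15c. The stages overlapped, and the log2 change of 0.24 ± 0.30 did not pass (SE; limma adjusted p = 0.545; 95% interval -0.42 to 0.91).

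**Figure D2:**
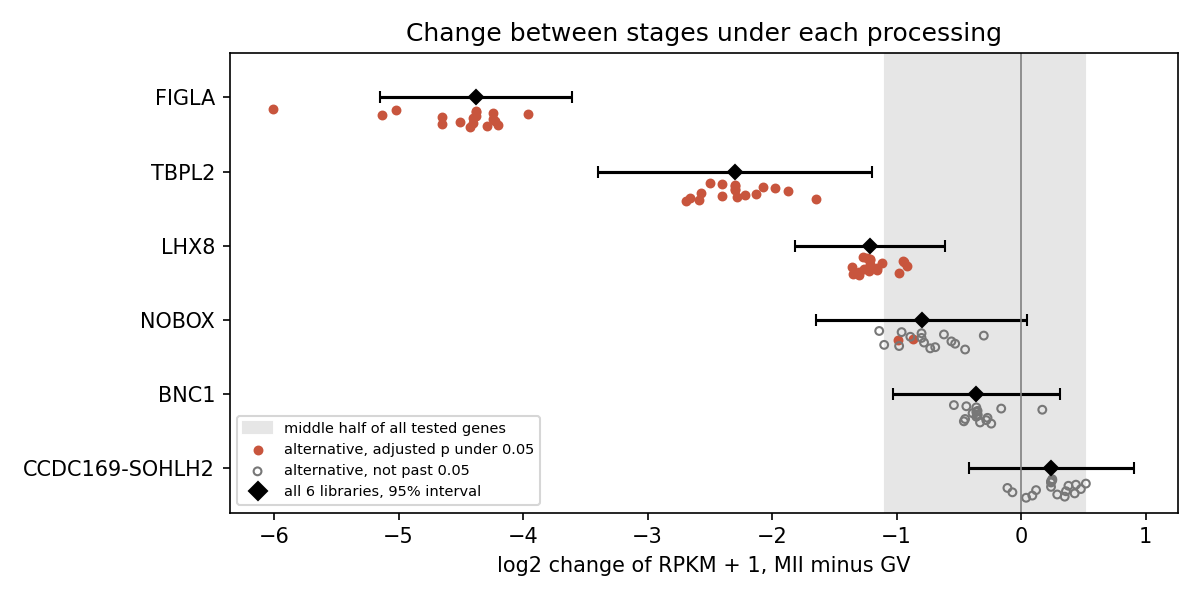
Change in log2(RPKM + 1), MII minus GV, for each tested row. Diamonds with bars give the estimate and its 95% interval from all 6 libraries, and small points give each alternative processing, filled where the adjusted p was under 0.05. FIGLA, TBPL2 and LHX8 are filled under all 18 alternatives, and the shaded band runs between the quartiles of all tested genes.

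The order of the members by RPKM differed between the stages. In GV, TBPL2, LHX8 and FIGLA were at similar levels, and each of the 3 GV libraries ordered them differently. NOBOX and BNC1 followed in all 3 GV libraries, and their order changed between libraries. In MII, LHX8 was the highest and TBPL2 the second in 3 of 3 libraries, and FIGLA was the lowest in 3 of 3. Ratios within a library do not depend on how libraries are scaled. FIGLA stood at 0.679 to 1.18 of the LHX8 level in GV and at 0.0122 to 0.0691 in MII. It stood at 0.719 to 0.839 of the TBPL2 level in GV and at 0.0245 to 0.0879 in MII. LHX8 stood at 0.714 to 1.07 of TBPL2 in GV and at 1.27 to 4.26 in MII. NOBOX kept no such order against LHX8, at 0.0526 to 0.141 in GV and 0.0660 to 0.130 in MII. Over the 10 pairs of members, 7 ratios did not overlap between stages, against 49.7% of all pairs of the 8316 tested genes read in all 6 libraries. The 10 ratios share 5 genes and so are not independent, and every pair that holds FIGLA is among the 7. The exact permutation p of each of the 7 was 0.1, the smallest 3 against 3 allows (0.143 after Benjamini-Hochberg adjustment over the 10 pairs), so none could pass.

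**Figure D3:**
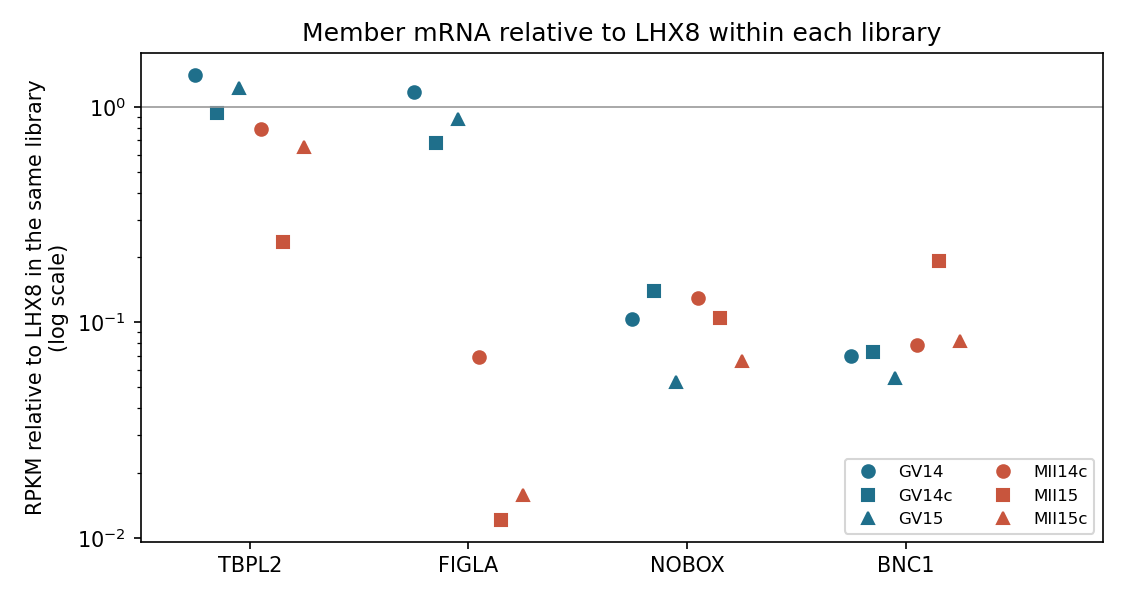
RPKM of TBPL2, FIGLA, NOBOX and BNC1 divided by that of LHX8 in the same library (log axis), GV in blue and MII in red. The MII points of FIGLA lie between 0.0122 and 0.0691, below all GV points, while those of NOBOX overlap with GV.

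MII15 held the lowest FIGLA, TBPL2, LHX8 and NOBOX of the MII libraries and the highest BNC1. It was also the shallowest MII library, at 21.27 M reads, and held the fewest genes at 1 RPKM or more, 7170 against 8087 in MII14c and 7760 in MII15c. The part of depth in the members' values was not tested. Without MII15 the same number of members, 3, was called lower, as were 24.3% of all tested genes.

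Among partners, cofactors and relatives of the members, GTF2A1L fell and TBPL1 rose. Of 26 such genes 25 were in the table and 17 tested: 1 was called lower, 1 higher and 15 passed in neither direction, with a median log2 change of 0.17 (over all tested genes, 26.9% lower, 13.4% higher and a median of -0.16). GTF2A1L, a germ cell form of the large TFIIA subunit, which binds beside TATA-binding proteins on promoters, fell from 202.982, 145.709 and 275.25 RPKM in GV14, GV14c and GV15 to 59.518, 57.426 and 52.612 RPKM in MII14c, MII15 and MII15c. Its log2 change was -1.82 ± 0.25 (SE; limma adjusted p = 0.000748). The general subunits GTF2A1 and GTF2A2 had log2 changes of 0.29 ± 0.30 and 0.17 ± 0.23 and did not pass (limma adjusted p = 0.469 and 0.592).

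TBPL1, the other relative of the TATA-binding protein, rose from 19.3 ± 5.22 RPKM in GV to 33.39 ± 1.90 RPKM in MII (SD, n = 3 libraries each). Its log2 change was 0.79 ± 0.25 (SE; limma adjusted p = 0.033). That call was lost without GV14, GV15, MII14c, MII15 or MII15c (limma adjusted p = 0.121, 0.104, 0.0626, 0.0582 and 0.0903; 0.000784 to 0.121 over the alternatives). TBP itself, whose symbol 3 rows carry, averaged 10.33 ± 5.46 RPKM in GV and 7.11 ± 3.03 RPKM in MII without passing (limma adjusted p = 0.417). TBPL2 was 1.97 to 5.74 times TBP in GV libraries and 0.576 to 1.56 times in MII libraries. Against TBPL1 it was 1.29 to 2.71 times in GV and 0.0619 to 0.373 times in MII. GTF2A1L was 4.11 to 14.4 times GTF2A1 in GV and 1.36 to 2.35 times in MII. None of these 3 ratios overlapped between stages (exact permutation p = 0.1 each, the smallest possible, and 0.1 adjusted over the 3).

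**Figure D4:**
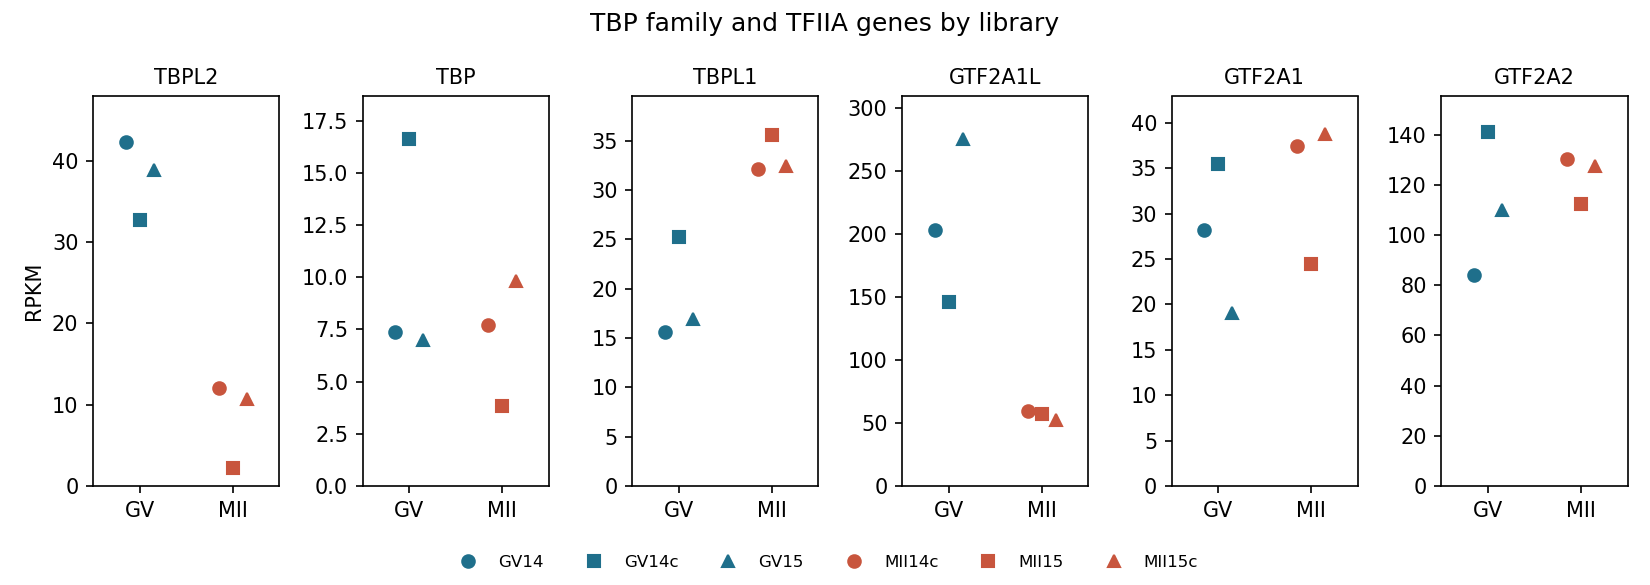
RPKM (linear axes from 0, a separate scale in each panel) of the TATA-binding protein family and of TFIIA subunits in the 6 libraries, GV in blue and MII in red. TBPL2 and GTF2A1L lie lower in all MII libraries, TBPL1 lies higher, and TBP, GTF2A1 and GTF2A2 overlap between stages.

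The other partners named here did not pass or were barely read. The E proteins, with which FIGLA and other helix-loop-helix factors pair, were TCF3 at 2.11 ± 1.46 and 0.792 ± 0.368 RPKM, TCF4 at 8.57 ± 2.18 and 10.4 ± 4.37, and TCF12 at 9.453 to 13.313 and 6.907 to 10.114 over the libraries of a stage (GV and MII, SD, n = 3 per stage). None of the 3 passed (limma adjusted p = 0.189, 0.701 and 0.408). LDB1, an adaptor of LIM homeodomain proteins such as LHX8, averaged 3.11 ± 2.83 RPKM in GV and 2.18 ± 1.03 RPKM in MII without passing (limma adjusted p = 0.761). BNC2, the relative of BNC1, stood at 0.0363 RPKM in GV and 0.008 in MII, and TAF4B, a germ line TFIID subunit, at 0.993 and 0.652, all below the level tested. The symbol TAF4B is carried by 2 rows, of which the row of highest mean RPKM is given.

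Genes listed as targets or dependents of these factors, or as relatives of such genes, moved in both directions. Whether each is a target in cattle was not tested. Of 36 such genes 32 were in the table and all 32 were tested: 12 fell, 3 rose and 17 passed in neither direction, with a median log2 change of -0.68 (against 26.9% lower, 13.4% higher and a median of -0.16 over all tested genes). The counts rest on the same contrast as the members, and earlier results for several of these genes were known when the list was written, so it is no independent evidence of a direction. The 6 falls of smallest p were ZAR1, NLRP2, ZP4, NLRP7, GDF9 and NPM2, with log2 changes between -2.90 (NLRP2) and -1.80 (GDF9). ZAR1 and NPM2 encode maternal-effect proteins, GDF9 a growth factor the oocyte secretes, and ZP4 a zona pellucida protein. ZP4 went from 1701 ± 539 to 296.7 ± 71.3 RPKM (SD, n = 3 per stage). ZP3 and ZP2, also of the zona pellucida, changed by -3.09 and -0.85. The ZP3 change was -2.25 without GV14c, its highest GV library, -2.24 without MII15 and -3.85 without GV15. It lost the call without GV14c (limma adjusted p = 0.0515; 1.4e-06 to 0.0784 over the alternatives), and ZP2 without GV15, MII14c or MII15c (0.0752, 0.058 and 0.111; 0.000201 to 0.256 over the alternatives). ZP2 mRNA was still at 1152 ± 331 RPKM in MII (SD, n = 3), when FIGLA stood at 0.477. BMP15 and POU5F1 did not pass (log2 changes 0.38 and -0.62; limma adjusted p = 0.245 and 0.242). The symbols POU5F1 and NLRP7 are carried by 2 rows each, of which the row of highest mean RPKM is given. KDM1B, a histone demethylase needed for maternal imprints, DNMT1, the maintenance DNA methyltransferase, and MAEL, of the piRNA pathway, rose (log2 changes 1.01, 1.39 and 0.59). MAEL also lost the call without GV14, GV15, MII14c or MII15 (0.151, 0.107, 0.0822 and 0.104). Without MII15c, 0 of the 31 targets then tested passed as higher in limma (adjusted p = 0.0513, 0.0568 and 0.0755 for KDM1B, DNMT1 and MAEL; 0.00111 to 0.104, 3.26e-05 to 0.0716 and 0.00671 to 0.151 over the alternatives). In that fit 6.72% of all tested genes were called higher, against 13.4% with all 6 libraries.

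Other transcription regulators of oocytes or early embryos showed both directions. Of 37 genes 32 were in the table and 18 tested: 3 fell, 2 rose and 13 passed in neither direction, with a median log2 change of -0.30 (26.9% lower and 13.4% higher over all tested genes). YBX2, an mRNA-binding protein of germ cells, FOXR1, a forkhead factor, and SOX15 fell (log2 changes -2.40, -2.98 and -1.32), and YAP1, the Hippo pathway coactivator, and SOX30 rose (1.77 and 0.94). The symbols YBX2 and YAP1 are carried by 2 rows each, of which the row of highest mean RPKM is given. SOX30 lost the call without GV14, GV15, MII15 or MII15c (limma adjusted p = 0.0876, 0.0986, 0.0584 and 0.0713; 0.00319 to 0.0986 over the alternatives), and SOX15 without MII15c (0.0711; 0.000253 to 0.167 over the alternatives). The number that fell was 5 without MII15, and 1 rose without GV14, GV15 or MII15c. Over all tested genes 24.3% were called lower without MII15, and 8.88%, 8.8% and 6.72% higher without GV14, GV15 and MII15c.

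**Figure D5:**
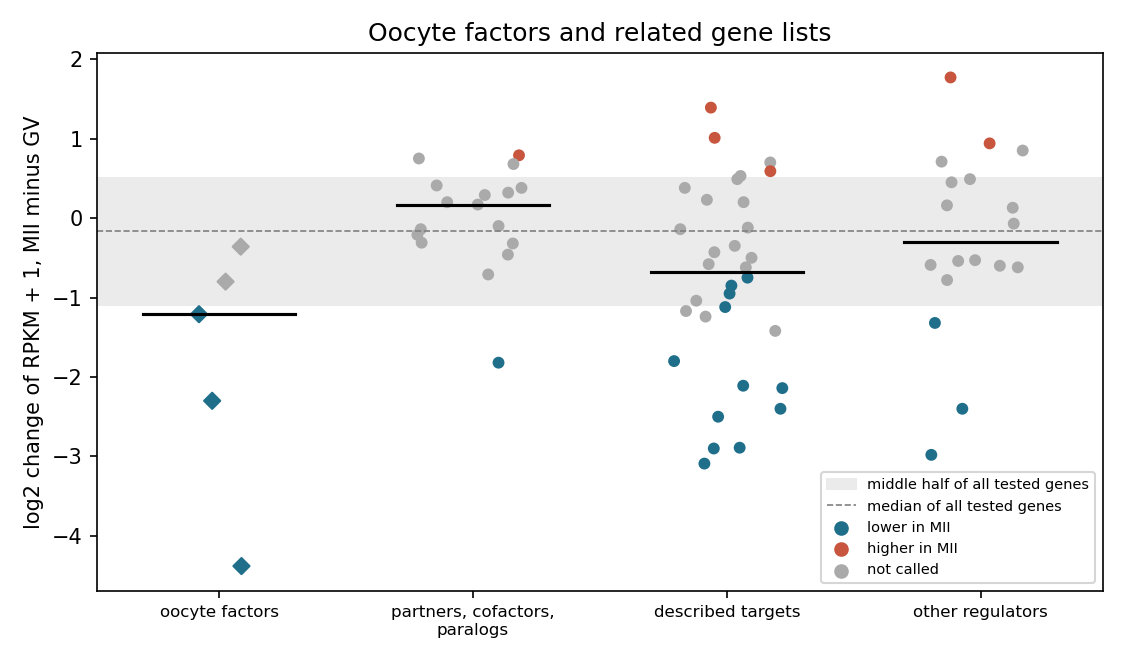
Log2 change, MII minus GV, of the 5 oocyte factors (diamonds) and of the tested genes of 3 related lists (points), coloured by call at a limma adjusted p under 0.05. Black lines are medians (-1.21, 0.17, -0.68 and -0.30 from left to right), the dashed line is the median of all tested genes (-0.16), and the band runs between their quartiles.

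The genes whose levels ran most like a member's over the 6 libraries were found by Pearson's r on log2(RPKM + 1), as a description only, since the 6 points fall into 2 stages. For FIGLA they were PPA1, MAGEB4, VTI1B, UBASH3B and CNIH4 (r from 0.9972 to 0.9997), but 973 of 8670 genes had r over 0.95 with it. For TBPL2 they were NUFIP1, PPAT, SPESP1, GINS1 and PDHB (0.9954 to 0.9987; 292 genes over 0.95), and for LHX8 SRA1, PLXDC1, TXNL4A, FUNDC2 and GLRX3 (0.9955 to 0.9993; 631 genes). For NOBOX they were RLTPR, GSK3A, PON2, JAM3 and WDR46 (0.9908 to 0.9935; 170 genes). BNC1 had few close neighbours, 24 over 0.95, led by BSX, CRYZ, YARS, TAF5L and MRPL44 (0.9804 to 0.9898). For the CCDC169-SOHLH2 row they were SLC35E3, RAPGEF4, ADAMTS3, LHX9 and NREP (0.9712 to 0.9963; 16 genes).

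All 16 oocyte markers found in the table averaged at least 1 RPKM. Of 20 cumulus and granulosa cell markers present, 12 averaged under 1 RPKM, and LHCGR, AMHR2, NR5A1 and PTX3 were at 0 in all 6 libraries. Their summed level was 118.4 to 185 RPKM in GV and 124.1 to 131.2 RPKM in MII, of which STAR and HAS2, at 101.2 and 16.27 RPKM in GV and 35.42 and 59.54 in MII, made up most. Of the 8 tested, 4 were called, against 40.3% of all tested genes in either direction. STAR and CD44 fell (log2 changes -1.44 and -1.46) and HAS2 and VCAN rose (1.84 and 1.07). The other 4, KITLG, SERPINE2, PTGS2 and GREM1, averaged 2.714 to 9.508 RPKM in GV and 2.072 to 7.325 RPKM in MII and did not pass. The part of such cells in the members' values was not tested. Of 9 blood, endothelial and stromal markers 8 averaged under 1 RPKM. The other, ACTA2, averaged 6.398 RPKM in GV and 3.818 RPKM in MII and did not pass (limma adjusted p = 0.223).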

How the data were processed

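The authors deposited RPKM per Ensembl gene for 6 single-oocyte libraries, per the file headers, read as single reads of 50 bases per the labels' protocols. The authors used DESeq in a role not stated, per the submitters' processing notes. Neither aligner nor counter nor genome build is given in the sources used here. A second deposited file holds gene models extended by CLC bio transcript discovery on the reads, per the file itself, and gives coordinates (counted from 1) and supporting reads.

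Depth was found as the value that turns low RPKM of 3449 coding-only models into whole reads. At that depth 96.6% to 100% of low values lay within 0.1 of a whole read. Reads of NOBOX, BNC1 and SOHLH1 were recovered the same way. Amplified reads are not independent molecules, so intervals and limits cover counting error only.

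Genes averaging at least 1 RPKM (8671) were tested with limma 3.58.1 in R 4.3.3 (lmFit, eBayes with trend) on log2(RPKM + 1), pseudocount 1, calling genes at a Benjamini-Hochberg adjusted p under 0.05. No count model was run. The code was tested on simulated data. Python 3.11.15 and scipy 1.17.1 gave exact permutation tests. The members and lists were chosen with earlier results of these data known. Each member row was named with all values. From each list, up to 6 called genes of smallest p in each direction and a fixed set of partners and targets were named, with the row of highest mean RPKM standing for a symbol. The 5 genes most like each member were also named. Genes outside this rule are ATG14 and the cell markers, and ATG14 was chosen after its values were seen. In all, 18 alternatives were tried: pseudocount, filter, scaling, trend, library weights, name terms and left-out libraries.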

Additional observations from a re-analysis of the deposited data

Results flagged for a closer look

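The annotation holds a predicted locus of the opposite strand beside LHX8, with 195 supporting reads, 190 of them spliced, on chromosome 3 from 69917062 to 69922645. It was singled out because it is a signal in data that no comparison uses, above the 3 reads that a count of 0 allows. The longest LHX8 model overlaps it by 1369 bases, and the libraries its reads come from are not stated.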

How the results depend on the processing

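FIGLA, TBPL2 and LHX8 were called lower under all 18 alternatives, with log2 changes of -6.01 to -3.96, -2.69 to -1.65 and -1.36 to -0.92. The largest FIGLA value came with a pseudocount of 0.1. With a mean of at least 5 RPKM, NOBOX and BNC1 were not tested. NOBOX passed under 2 of 17 alternatives, library weights and the letter c as a term (limma adjusted p = 0.0112 and 0.0282; 0.0112 to 0.529 over the alternatives), and BNC1 under 0 of 17 in limma (0.121 to 0.72). BNC1 turned to 0.17 with quantile normalization, and CCDC169-SOHLH2 to -0.11 with library weights and -0.07 without GV14c (to 0.43 with another library left out). SOHLH1, tested only without the filter, changed by -0.28 ± 0.06 (limma adjusted p = 0.0176), from 2, 0 and 0 reads in MII14c, MII15 and MII15c. In that fit 14.6% of 16023 genes were called lower and 5.79% higher. Over all tested genes the median change, -0.16, became 0.05, 0.22 and -0.07 after median-ratio, quantile and TPM scaling.

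The cause of the following differences was not tested. Over all genes, 26.9% were called lower and 13.4% higher. These shares were 37.1% and 26.1% with library weights, 34.3% and 16.9% with the letter c, and 15.2% and 4.22% without both unmatched columns. After median-ratio, quantile and TPM scaling they were 23.7% and 19.4%, 20.5% and 24.6%, and 23.6% and 15.8%. With 1 library left out they were 20% to 25.8% lower and 6.72% to 15.2% higher. Partners called lower numbered 2 with library weights and 2 with the letter c. Partners called higher numbered 2, 3 and 2 after median-ratio, quantile and TPM scaling, 4 with library weights, 2 with the letter c, 0 without both unmatched columns, and 0 to 2 with 1 library left out. Targets called lower numbered 19 with the letter c, 7 without both unmatched columns and 8 to 13 with 1 library left out; targets called higher numbered 0 without both unmatched columns and 0 to 3 with 1 left out. Other regulators called lower numbered 7 with library weights and 2 to 5 with 1 library left out. Those called higher numbered 4 after median-ratio scaling, 5 after quantile normalization, 4 with library weights, 4 with the letter c, 1 without both unmatched columns and 1 to 3 with 1 left out. SOHLH1 rests on few reads, and the MII values of FIGLA on 2.425 to 32.8 reads per kilobase of gene model. With the number 14 or 15 in the names as a block, a number not stated to pair samples, 3 members were called lower and 0 higher. In that fit 24.6% of all tested genes were called lower and 13.2% higher.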
